A study of Homo sapiens with 32 samples.

Results

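The kinesin genes were examined in 8 Human Exon 1.0 ST Arrays of LNCaP, an established androgen-responsive line from a prostate cancer metastasis. Members were the transcript clusters with a single gene symbol that starts with KIF and a digit or with KIFC, together with *KIFAP3*, the adaptor subunit of kinesin-2. The rule found 32 genes in 33 clusters, of 13345 genes with a single symbol and 16309 clusters in all. Of the 32 genes, 8 were listed as mitotic kinesins, 15 as cargo kinesins and 9 as other kinesins. All cells had spent 72 hours in steroid-deplete medium, in which the serum had been stripped with charcoal. The 4 R1881 arrays followed a further 24 hours with R1881, a synthetic androgen, at 10 nM. The 4 steroid-deplete arrays are the controls, for which the paper's methods give the same 24 hours without R1881. The arrays are experimental quadruplicates of 1 cell line, nothing in the labels says that they came from separate cultures, and the p-values therefore measure only the spread between these arrays, which may be technical. In bulk RNA, fewer cells of a type and less RNA per cell cannot be told apart.

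Kinesins are motor proteins that turn the energy of ATP into movement along microtubules or into the disassembly of microtubule ends. The mitotic kinesins push the spindle poles apart, move and align chromosomes and build the midzone that divides the cell, and most of them are made mainly in cells that approach division. The cargo kinesins carry vesicles, mitochondria and endosomes, mostly towards the cell periphery, and work in dividing and non-dividing cells. Many genes of the late cell cycle are controlled through 2 short promoter elements, the CCAAT box and the cell cycle genes homology region (CHR), the site of the complexes that hold such genes off in resting cells.

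Of the 8 measured mitotic kinesins 5 hold the CHR letters near their annotated start and 4 of these hold CCAAT as well, and the promoters of these 5 are shown first. *KIF2C*, which was called lower without either run of letters, is set beside them, while *KIF22* (CCAAT alone) and *KIF2B* (no match) are not shown. Each line gives the 160 bases from 110 before to 50 after the annotated start, 5′ to 3′ on the strand of the gene, from RefSeq promoters in build GRCh38.p14. Capitals mark TTTGAA, the letters taken as the CHR, and CCAAT, each on either strand. No other spelling of either element was searched, so a window without a match may still hold a variant. *KIF11* lies at chr10:92593020-92593179 (+), *KIF20B* at chr10:89701480-89701639 (+), *KIF14* at chr1:200620702-200620861 (-), *KIF15* at chr3:44761684-44761843 (+), *KIF18A* at chr11:28108107-28108266 (-), *KIF2C* at chr1:44739727-44739886 (+) and *KIF1C*, a cargo kinesin shown for contrast, at chr17:4997840-4997999 (+).
KIF11: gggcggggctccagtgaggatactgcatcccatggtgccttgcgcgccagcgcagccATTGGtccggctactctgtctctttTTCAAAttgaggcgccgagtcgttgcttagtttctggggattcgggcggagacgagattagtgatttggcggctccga
KIF20B: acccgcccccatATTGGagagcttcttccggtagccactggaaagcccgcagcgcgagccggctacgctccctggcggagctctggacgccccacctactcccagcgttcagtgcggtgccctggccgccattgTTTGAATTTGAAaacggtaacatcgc
KIF14: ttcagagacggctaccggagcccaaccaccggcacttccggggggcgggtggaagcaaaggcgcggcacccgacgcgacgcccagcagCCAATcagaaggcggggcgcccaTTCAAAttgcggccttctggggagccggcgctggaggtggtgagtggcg
KIF15: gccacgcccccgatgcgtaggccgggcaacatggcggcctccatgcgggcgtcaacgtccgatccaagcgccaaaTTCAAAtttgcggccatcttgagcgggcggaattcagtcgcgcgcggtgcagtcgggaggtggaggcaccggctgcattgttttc
KIF18A: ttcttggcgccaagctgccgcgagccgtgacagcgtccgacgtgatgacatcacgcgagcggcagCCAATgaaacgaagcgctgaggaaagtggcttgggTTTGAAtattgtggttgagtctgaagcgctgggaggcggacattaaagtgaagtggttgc
KIF2C: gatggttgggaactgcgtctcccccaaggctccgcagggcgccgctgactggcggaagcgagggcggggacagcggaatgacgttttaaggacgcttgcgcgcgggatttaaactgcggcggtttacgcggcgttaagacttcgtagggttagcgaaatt
KIF1C: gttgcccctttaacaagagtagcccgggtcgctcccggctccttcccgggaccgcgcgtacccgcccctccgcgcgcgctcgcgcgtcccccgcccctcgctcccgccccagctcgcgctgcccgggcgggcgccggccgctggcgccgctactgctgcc

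A CHR sits close to the start in each of the first 5 windows. It begins 28 bases before the start in *KIF11*, 35 before it in *KIF15* and 10 before it in *KIF18A*, and at bases 2 and 25 after it in *KIF14* and *KIF20B*. *KIF20B* holds a second, adjoining copy at base 31. The windows of *KIF2C* and *KIF1C* hold neither run of letters in the bases shown.

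Of the 44 kinesin genes listed, 35 had a promoter in the table, in 44 windows of 300 bases. The CHR letters occurred in 10 of 15 mitotic windows, 1 of 17 cargo windows and 0 of 12 other windows, against 15.2% of all 35116 windows. CCAAT occurred in 11 of 15 mitotic, 5 of 17 cargo and 4 of 12 other windows, against 34.6% of all. Both occurred together in 9 mitotic windows, 1 cargo window and 5.90% of all windows, and the letters of a CHR and a CCAAT overlapped in 0.12% of all. The mitotic windows with a CHR belonged to *KIF4A*, *KIF4B*, *KIF11*, *KIF14*, *KIF15*, *KIF18A*, *KIF18B*, *KIF20B*, *KIF23* and *KIFC1*, of which *KIF4B* is a processed copy of *KIF4A*, and the cargo window belonged to *KIF5B*. The full androgen response element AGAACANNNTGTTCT was found in none of the kinesin windows and in 1 window of all. A match is a description of letters and not of a bound site. Over all measured genes the CHR letters were as frequent in the promoters of genes called lower (12.0% of windows) as in those of genes not called (12.1%).

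Gene-level levels are log2 values from robust multichip averaging (RMA), and a log2 fold change is the R1881 mean minus the steroid-deplete mean. A gene was called at an adjusted p under 0.005 in limma's moderated test, with Benjamini-Hochberg adjustment over all 16309 clusters. Of the 32 kinesin genes, 5 were called lower and 2 higher after R1881. Over all clusters 12.2% were called lower and 6.44% higher, so the family as a whole, at 15.6% and 6.25%, stood near the background. In the RMA values no kinesin reached 2-fold, a size that 2.04% of all clusters passed as lower and 1.94% as higher. Iter-PLIER values are a second gene-level summary of the same arrays, read here as the log2 of the intensity plus a pseudocount of 16. There *KIF6*, *KIF3C*, *KIF11* and *KIF20B* were called at log2 fold changes of -1.18, -1.14, -1.12 and -1.01, past 2-fold. The share of all clusters past 2-fold in those values was not computed. *KIF6*, *KIF11* and *KIF20B* lay low, at percentiles 12.6, 17.9 and 11.7 of the RMA level of all clusters. At low levels the size of a change can depend on the pseudocount, and no other was tried for genes. Of the 8 mitotic kinesins 3 were called lower and 0 higher by limma (4 lower and 1 higher at an adjusted p under 0.05, 5 and 1 at an unadjusted p under 0.05), of the 15 cargo kinesins 1 was called lower and 2 higher (2 and 2 at an adjusted p under 0.05, 4 and 3 at an unadjusted p under 0.05), and of the 9 other kinesins 1 was called lower. Of all 16309 clusters, 3230 were lower and 1711 higher at an adjusted p under 0.05, and 4003 and 2283 at an unadjusted p under 0.05. The median log2 fold change was -0.31 for the mitotic, -0.10 for the cargo and -0.08 for the other kinesins, and -0.003 for all clusters. No test of the difference between the lists was made. The lists were also read at different levels, since 7 of the 8 mitotic kinesins but 2 of the 15 cargo kinesins lay below the median level of all clusters, where 7.05% of clusters were called lower and 1.88% higher.

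**Figure D1:**
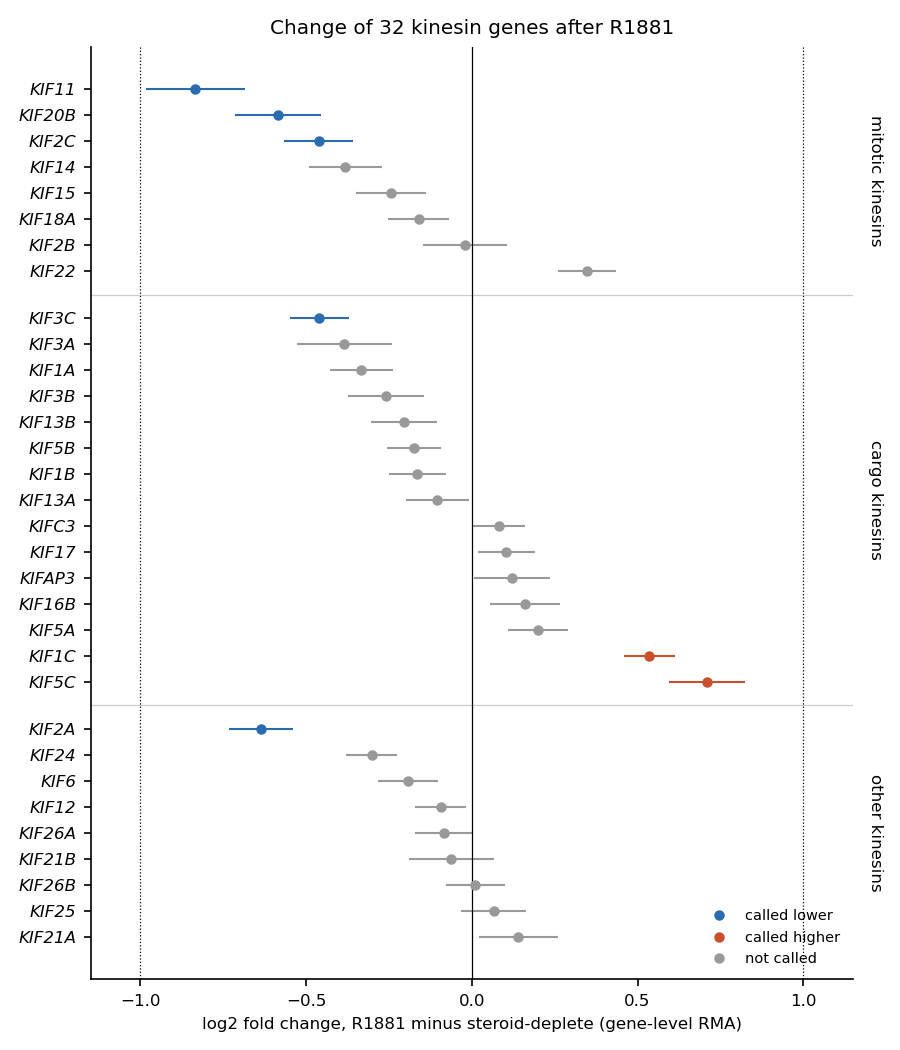
Log2 fold change of each of the 32 kinesin genes (R1881 minus steroid-deplete, gene-level RMA, 4 arrays a group), with limma's standard error as the bar, by list. Blue and red points are genes called lower and higher at an adjusted p under 0.005, grey points were not called, and dotted lines mark 2-fold, which none reached.

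*KIF11* encodes the kinesin that slides antiparallel spindle microtubules apart and so sets up the 2 poles of the spindle, and it had the largest decrease among the 32 kinesins. Its level was 4.63, 4.83, 4.62 and 4.71 in the steroid-deplete arrays and 3.59, 3.78, 4.42 and 3.66 in the R1881 arrays. All R1881 arrays lay below all controls, with the third the nearest to them. *KIF11* fell by 0.83 on the log2 scale (SE 0.15, 1.78-fold lower, adjusted p = 0.000673).

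*KIF20B*, a kinesin of the late stages of cell division, was at 3.51, 4.01, 4.07 and 4.07 in steroid-deplete medium and at 3.22, 3.38, 3.54 and 3.18 after R1881. The first control lay below the third R1881 array, so the groups overlapped, while the other three controls lay above every R1881 array. *KIF20B* fell by 0.58 (SE 0.13, 1.50-fold lower, adjusted p = 0.0031). *KIF2C* encodes a motor that does not walk but removes tubulin from microtubule ends at the centromere, by which wrong attachments of chromosomes are undone. Its level was 5.22, 5.16, 5.66 and 5.24 against 4.89, 4.89, 4.82 and 4.84, with the third control well above the others and the groups apart. *KIF2C* fell by 0.46 (SE 0.10, 1.38-fold lower, adjusted p = 0.00382). Of these calls, that of *KIF11* held whichever single array was left out. That of *KIF20B* was lost without any array other than steroid-deplete replicate 1 or R1881 replicate 3, at adjusted p up to 0.014, and that of *KIF2C* without any array other than steroid-deplete replicate 2, at adjusted p up to 0.0106. With arrays centred on their median both calls were lost (adjusted p = 0.00599 for *KIF20B* and 0.0147 for *KIF2C*). The methods' t-test, here with Benjamini-Hochberg adjustment over all clusters, called none of these 3, nor *KIF3C*, *KIF2A* or *KIF5C*. The authors used q-values after a detection filter, and that procedure was not run.

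The 5 mitotic kinesins that were not called ranged from -0.38 to 0.35. *KIF14*, a motor of the midbody that works in cytokinesis, was at 4.29, 4.61, 4.86 and 4.59 in the controls and at 4.08, 4.25, 4.30 and 4.18 after R1881, a log2 fold change of -0.38 (SE 0.11, adjusted p = 0.0168), with the first control just below the third R1881 array. The values were -0.24 for *KIF15*, which can stand in for *KIF11* in keeping the spindle bipolar, -0.16 for *KIF18A*, which dampens the swings of aligned chromosomes, and -0.02 for *KIF2B*, a relative of *KIF2C*. *KIF22*, which pushes chromosome arms away from the spindle poles, went the other way. Its level was 7.08, 7.16, 7.19 and 7.37 in steroid-deplete medium and 7.47, 7.55, 7.69 and 7.48 after R1881, with no overlap (log2 fold change 0.35, SE 0.09, adjusted p = 0.00785). It was the only mitotic kinesin with a cluster of its own at or above the median level of all clusters. Its call depended on the scaling, with an adjusted p of 0.000699 when each array was centred on its median, and its promoter held a CCAAT 66 bases before the start but no CHR.

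**Figure D2:**
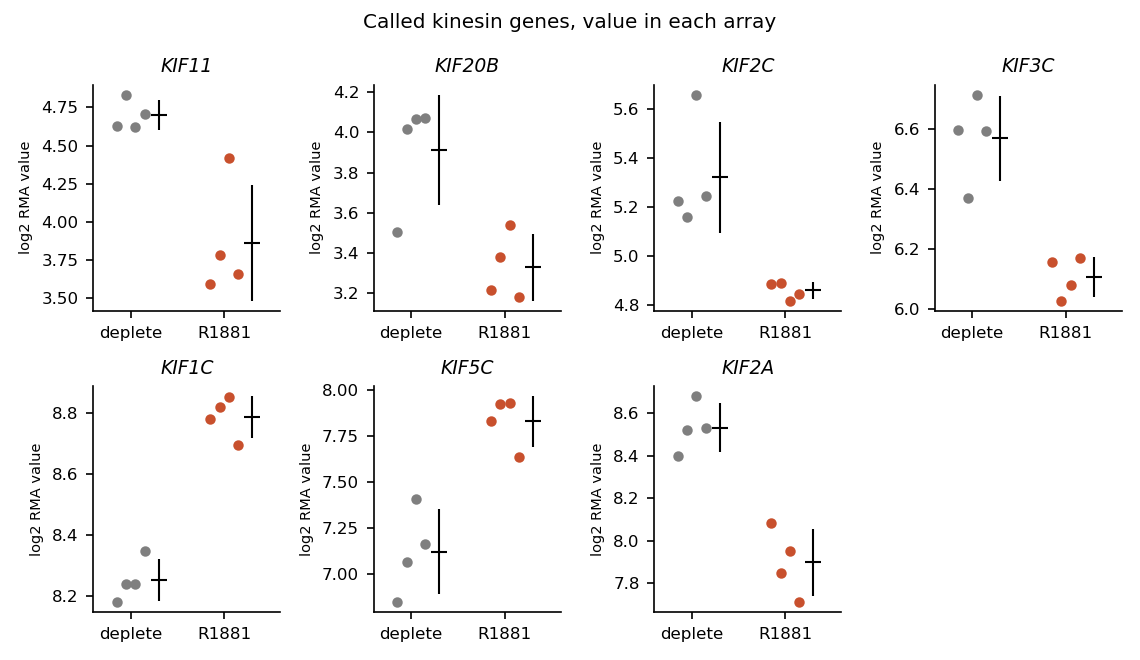
Gene-level RMA value (log2) in each of the 4 steroid-deplete (grey) and 4 R1881 (red) arrays for the 7 called kinesins, in replicate order within a group, with the mean and SD in black beside them. The axes differ between genes and do not start at 0. The groups overlap in *KIF20B* alone, through its first control.

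Of the 44 kinesin genes listed, 12 had no cluster of their own, 9 of them in clusters with several symbols. The clusters that hold *KIFC2*, *KIF7*, *KIF9*, *KIF19* and *KIF27* were not called, at log2 fold changes from -0.34 to 0.12, and *KIF18B*, *KIFC1* and *KIF28P* were in no gene-level cluster. *KIF20A*, which brings the Aurora B complex to the central spindle, shared a cluster with *CDC23*, a subunit of the ubiquitin ligase that ends metaphase. This cluster was at 6.73, 6.88, 7.17 and 7.01 in the controls and at 6.26, 6.30, 6.34 and 6.21 after R1881, fell by 0.67 (SE 0.10, adjusted p = 0.000111) and had no overlap. *KIF23*, the motor of the midzone complex centralspindlin, shared its cluster with its antisense transcript. The values were 5.26, 5.34, 5.09 and 5.44 against 4.57, 4.44, 4.90 and 4.61, again with no overlap, and the cluster fell by 0.66 (SE 0.11, adjusted p = 0.000356). The cluster of *KIF4A*, a chromokinesin that also shapes the central spindle, and its copy *KIF4B* was at a mean of 6.21 in both groups, with a 95% interval of the log2 fold change from -0.24 to 0.24. Neither shared cluster says which of its genes changed.

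Exon-level RMA values, in which most of these genes have probe sets with a single symbol, were therefore read as well, a choice made after the missing clusters had been seen. They come from the same arrays and are a second summary of them. Among probe sets at or above the median level, all 16 of *KIF20A* were lower after R1881 (median log2 fold change -0.66), as were 9 of 10 of *KIF23* (-0.66), all 4 of *KIF11* (-1.03), all 10 of *KIF20B* (-0.90), 14 of 15 of *KIF2C* (-0.46) and 14 of 16 of *KIF14* (-0.45). *KIFC1*, the minus-end motor that bundles spindle poles, had 9 of 10 lower (-0.30). *KIF18B*, which limits the astral microtubules, had 10 of 15 lower (-0.23), and the medians by array of both overlapped between the groups. In the others the signs were mixed, with 3 of 5 lower for *KIF4A* (-0.03), 3 of 6 for *KIF15* (-0.08), 2 of 3 for *KIF18A* (-0.23) and 1 of 3 for *KIF2B* (0.01), and the only one of *KIF4B* was higher (0.76). *KIF22* had 15 of 18 higher (0.27). Over the mitotic kinesins 98 of 132 such probe sets (74.2%) were lower, against 246 of 435 (56.6%) of the cargo kinesins and 54.8% of all 184648 with a single symbol. Singly few passed: 5 of the 132 were called lower at p of 0.001 or less (3.79%), close to the background of 3.98%. Probe sets of a gene measure the same RNA and are not replicates. The limit on level left 4 of 24 probe sets of *KIF11*, 10 of 38 of *KIF20B*, 6 of 33 of *KIF15* and 3 of 17 of *KIF18A*. It kept all 18 of *KIF22*.

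**Figure D3:**
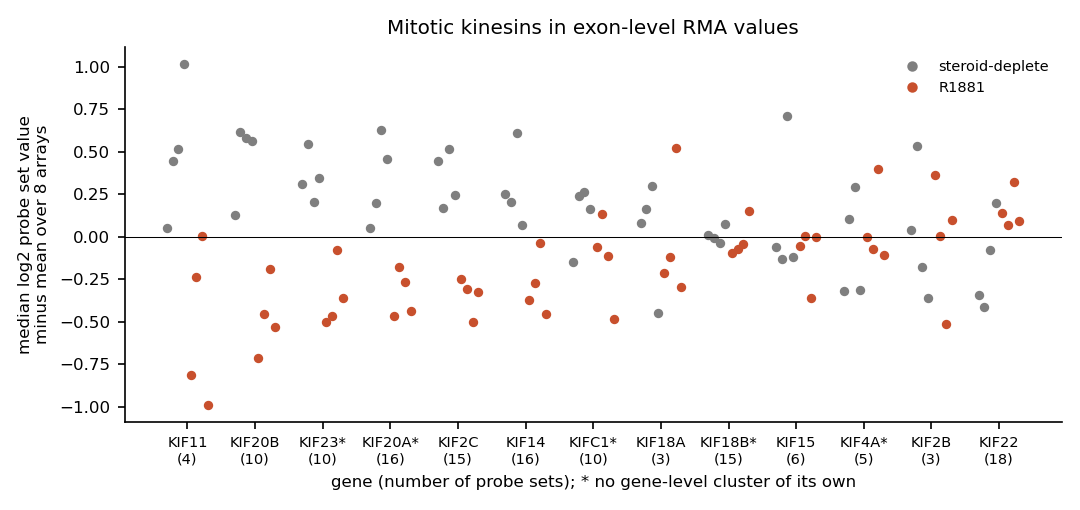
Median exon-level RMA value over the probe sets of each mitotic kinesin with at least 3 of them at or above the median level, as the log2 difference from its mean over the 8 arrays, in 4 steroid-deplete (grey) and 4 R1881 (red) arrays. The R1881 points lie below all controls in *KIF11*, *KIF20B*, *KIF23*, *KIF20A*, *KIF2C* and *KIF14*, and the groups overlap in the others.

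Among the cargo kinesins, 2 rose. *KIF5C*, a heavy chain of conventional kinesin best known from neurons, was at 6.85, 7.07, 7.40 and 7.16 in steroid-deplete medium and at 7.83, 7.92, 7.93 and 7.63 after R1881. The groups did not overlap, although the controls spread over more than the R1881 arrays. *KIF5C* rose by 0.71 (SE 0.11, 1.63-fold, adjusted p = 0.000305). *KIF1C*, a kinesin-3 motor of dense-core vesicles and integrins, was at 8.18, 8.24, 8.24 and 8.35 in the controls and at 8.78, 8.82, 8.85 and 8.70 after R1881. It had the tightest groups of the called kinesins that rose, with a difference far above their spread, and rose by 0.54 (SE 0.08, 1.45-fold, adjusted p = 0.00012). In the exon-level RMA values 27 of the 28 probe sets of *KIF5C* at or above the median level (of 31) were higher after R1881. So were all 25 of *KIF1C*. Both calls held whichever array was left out.

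The 2 other heavy chains of conventional kinesin were not called. *KIF5B*, the form found in most tissues, had a log2 fold change of -0.17 (SE 0.08, adjusted p = 0.136) and *KIF5A*, a neuronal form, one of 0.20 (SE 0.09, adjusted p = 0.123). The differences between these chains were not tested.

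*KIF3C*, a kinesin-2 motor that pairs with *KIF3A*, was the cargo kinesin called lower. Its level was 6.60, 6.37, 6.71 and 6.59 in the controls and 6.16, 6.03, 6.08 and 6.17 after R1881, with no overlap. *KIF3C* fell by 0.46 (SE 0.09, 1.38-fold lower, adjusted p = 0.00115), a call lost without steroid-deplete replicate 3 (adjusted p = 0.00503), with arrays centred on their median (0.00652), after quantile normalisation (0.00547) and with the methods' t-test (0.00913). In Iter-PLIER values its log2 fold change was -1.14. The other kinesin-2 subunits, which power transport within cilia, were not called. *KIF3A* had a log2 fold change of -0.39 (SE 0.14, adjusted p = 0.0583), with R1881 replicate 4 well below the rest, *KIF3B* one of -0.26 and *KIFAP3* one of 0.12. *KIF1A*, a carrier of synaptic vesicle precursors, was at 7.66, 7.47, 7.78 and 7.85 against 7.47, 7.33, 7.37 and 7.26 (log2 fold change -0.33, SE 0.10, adjusted p = 0.0159), with the second control just above the first R1881 array. The remaining 6 cargo kinesins, the endosome motors *KIF13A*, *KIF13B* and *KIF16B* among them, lay between -0.21 and 0.16 and were not called. They include *KIF17*, also a kinesin-2 motor, at 0.10 (adjusted p = 0.414).

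In the other list *KIF2A* fell. It belongs, like *KIF2C*, to the family that dismantles microtubule ends, and acts both at spindle poles and in interphase cells, for which reason it was not put with the mitotic kinesins. Its level was 8.40, 8.52, 8.68 and 8.53 in steroid-deplete medium and 8.08, 7.85, 7.95 and 7.71 after R1881, with the groups well apart. *KIF2A* fell by 0.64 (SE 0.10, 1.55-fold lower, adjusted p = 0.000179) and held its call whichever array was left out. Of its 20 exon-level probe sets 16 were at or above the median level, and all 16 were lower. A further cluster carries its symbol together with *IPO11* and had a log2 fold change of -0.23 (adjusted p = 0.176). *KIF24*, which holds back the growth of cilia, had a log2 fold change of -0.30 (adjusted p = 0.0088) in the cluster with the higher level and -0.14 (adjusted p = 0.328) in its second cluster. The other 7 genes of this list ranged from -0.19 for *KIF6* to 0.14 for *KIF21A*, a motor that restrains microtubule growth at the cell cortex. *KIF6*, at a low level, had a log2 fold change of -1.18 in Iter-PLIER values and was called lower there.

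When the mean of each list was taken in each array, relative to its mean over the 8 arrays, the mitotic kinesins stood at -0.04, 0.18, 0.27 and 0.18 in steroid-deplete medium and at -0.20, -0.17, -0.04 and -0.18 after R1881. The first control and the third R1881 array were level, and the others were apart. The cargo kinesins stood at -0.07, -0.03, 0.07 and 0.06 against 0.03, 0.02, 0.07 and -0.15, with full overlap. The mitotic minus the cargo mean was 0.03, 0.21, 0.20 and 0.13 in the controls and -0.23, -0.19, -0.11 and -0.03 after R1881. The difference between the lists thus changed by -0.28 (group SDs 0.08 and 0.09, n = 4), a description without a test, since the genes of a list are not replicates. With the mitotic list cut to the genes at or above the median level nothing but *KIF22* remained, and the direction turned.

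Of 18 measured genes that work with the mitotic kinesins 11 were called lower and 0 higher by limma (0 higher also at an unadjusted p under 0.05), against 12.2% and 6.44% of all clusters, with a median log2 fold change of -0.50. The 7 not called ran from -0.52 for *CDK1* to -0.10 for *INCENP*, a kinase and a scaffold of mitosis. *TPX2*, which nucleates spindle microtubules and binds *KIF11* protein, had the largest change of the list. Its level was 7.67, 7.88, 7.76 and 7.73 in the controls and 6.48, 6.57, 7.04 and 6.40 after R1881, and it fell by 1.14 (SE 0.12, 2.20-fold lower, adjusted p = 8.3e-06). *NUSAP1*, a spindle microtubule binder, fell by 0.92, *ANLN*, a scaffold of the contractile ring, fell by 0.78, and *PLK1*, a kinase of mitotic entry and spindle assembly, fell by 0.70. In each of the 4 the third R1881 array was the highest of its group, as it was in *KIF11*. In the promoters of this list the CHR letters occurred in 13 of 19 windows and CCAAT also in 13.

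**Figure D4:**
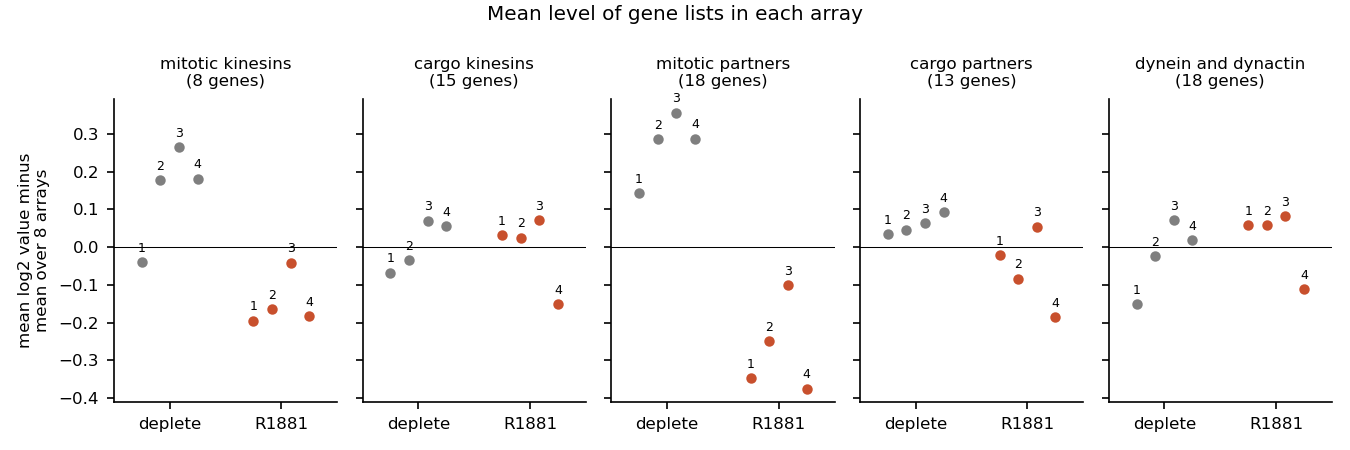
Mean gene-level RMA value of 5 gene lists in each array, as the log2 difference from the list's mean over the 8 arrays. Points carry the replicate number, grey for steroid-deplete and red for R1881. The mitotic partners are apart between the groups and the mitotic kinesins nearly so, with control 1 and R1881 array 3 level, while cargo kinesins, cargo partners and dynein and dynactin overlap.

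Of 13 cargo partners 1 was called higher and 2 lower (7.69% and 15.4%, median -0.09), near the 6.44% and 12.2% of all clusters. *KLC2*, a light chain by which conventional kinesin holds its cargo, rose by 0.42 (SE 0.09, adjusted p = 0.00237). *TRAK2* and *TRAK1*, the adaptors that couple kinesin to mitochondria, fell by 0.54 and 0.52. Of 18 genes of dynein and dynactin, the motor towards the cell centre and its cofactor, 3 were called higher and 2 lower (16.7% and 11.1%, median 0.01), which are few genes against the same background. *DYNC1LI1* and *DYNLL2*, dynein chains, rose by 0.55 each and *NDEL1*, a dynein regulator, by 0.34, while the dynactin subunits *DCTN4* and *DCTN1* fell by 0.63 and 0.52.

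Of 14 measured markers of proliferation 12 were called lower and 1 higher (85.7% and 7.14%, against 12.2% and 6.44% of all clusters, median -0.69), and their mean level, set as above, ran from 0.17 to 0.39 in the controls and from -0.46 to -0.13 after R1881. *MKI67*, which encodes the Ki-67 antigen of dividing cells, fell by 0.66. *GINS1* and *CCNE2*, of DNA replication and its onset, fell by 1.12 and 1.02, *TOP2A*, a topoisomerase of dividing cells, by 1.01 and *TYMS*, of thymidylate synthesis, by 0.99, while *CDC6*, a replication licensing factor, rose by 0.86. Of 12 measured regulators of late cell cycle genes 4 were called lower (33.3%) and 0 higher by limma (1 higher at an unadjusted p under 0.05, the cell cycle inhibitor *CDKN1A* at 0.40). The called genes were *RBL1*, a pocket protein of the repressor complex that binds the CHR (fell by 0.78), the activators *FOXM1* (0.56) and *MYBL2* (0.44), and the repressor *E2F8* (0.41). The part of a change in the share of dividing cells in the values of the mitotic kinesins was not tested.

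The probe sets of the kinesin genes were also set against the level of their own gene, to ask whether parts of a gene changed apart from the whole. The quantity is the log2 exon-level intensity minus the log2 gene-level intensity, with a pseudocount of 16. Of 892 probe sets of kinesin genes with a cluster, 506 in 22 genes passed the filters on level. After R1881, 5 were higher relative to their gene at p of 0.001 or less and 1 was lower, against 2.08% and 0.778% of all 116900 tested, so the kinesin genes had few such calls. The difference rose by 1.00 (SE 0.16) in *KIF1A* probe set 2606863 and by 0.84 in its probe set 2606910, by 1.42 (SE 0.27) in *KIF3A* probe set 2875453, and by 0.69 and 0.67 in *KIF12* probe sets 3221833 and 3221859. In *KIF5C* probe set 2509961 it fell by 0.88 (SE 0.16). Of these, *KIF1A* probe set 2606863 (mean difference -2.78 in the controls, -1.78 after R1881) and *KIF3A* probe set 2875453 (-2.94 and -1.51) were within 5-fold of their gene only after R1881. *KIF5C* probe set 2509961 (-2.27 and -3.15) was so only in the controls. Each passed the filter only through the treatment where it stood higher, so its call is not independent of the filter. The probe sets themselves had log2 fold changes of 0.35 and 0.16 in *KIF1A*, 0.15 in *KIF3A* and 0.13 in *KIF5C* in exon-level RMA values. Gene-level changes of *KIF1A*, *KIF3A* and *KIF5C* were -0.33, -0.39 and 0.71 in RMA values, and -0.77, -0.56 and 0.91 in Iter-PLIER values. The probe sets of *KIF12* had values of 0.90 and 0.38 of their own, against gene-level changes of -0.09 in RMA and -0.34 in Iter-PLIER values. With exon-level and gene-level RMA in place of Iter-PLIER 1 was called higher and 0 lower.

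The first principal component (73.3% of the variance) split the arrays by treatment. On the second (8.27%) the first control and the fourth R1881 array stood apart, and without both of them *KIF2C* alone lost its call among the 7 (adjusted p = 0.0108). Of the luminal prostate markers 5 of 10 were measured as single genes, all at or above the median level, with *KLK3*, *KLK2* and *TMPRSS2*, established androgen targets, called higher at 1.82, 2.54 and 2.57, *HOXB13*, a factor of prostate identity, called lower at -0.44, and *EPCAM*, an epithelial adhesion protein, not called at -0.12. Of 9 measured markers of basal, stromal, blood and neural cells 8 lay below the median level of all clusters, and the exception, *ENO2*, fell by 0.79. Median array levels ran from 6.33 to 6.40 in steroid-deplete medium and from 6.22 to 6.31 after R1881. Centring each array on its median moved the median of all clusters to 0.10 and the split of calls from 1051 higher and 1986 lower to 1533 and 1506, and that of the kinesins to 3 higher (*KIF1C*, *KIF5C* and *KIF22*) and 2 lower (*KIF11* and *KIF2A*).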

How the data were processed

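RNA of LNCaP cells in steroid-deplete medium and after R1881 was depleted of ribosomal RNA and hybridised to 8 exon arrays, 4 a treatment, each deposited in 4 summaries. The authors computed log2 RMA values per gene with quantile normalisation and deposited log2 RMA values per probe set as well. They also deposited linear intensity values, per gene from Iter-PLIER and per probe set under the same label, where their methods state PLIER. The submitters' processing notes name RMA, PLIER and hg18, without versions. The number of arrays limits the precision.

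Arrays were grouped by their labelled treatment. Symbols came from the array's annotation, updated through RefSeq (20 symbols, none a kinesin). Of 16309 clusters, 13482 had 1 symbol, 1967 several and 860 none. Where a symbol had several clusters, the one with the highest mean stood for it. The RMA values per gene were compared with limma 3.58.1 in R 4.3.3 and Benjamini-Hochberg adjustment over all clusters. Probe sets relative to their gene were tested with limma on log2 intensities with a pseudocount of 16, after filters: a gene at or above the 25th percentile in both treatments and changed under 10-fold, and a probe set at or above the 50th percentile in a treatment and within 5-fold of its gene there. RefSeq promoters were searched as letters on both strands. The software also included the data.table package (version 1.17.8), pandas 2.3.3 and matplotlib 3.10.9. Both tests were first tested on simulated data.

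The kinesins and all lists were chosen with earlier results of these data known. Every kinesin was accounted for, values by array and full statistics were given for called members, and of the related lists up to 4 called members a direction were named. *MKI67*, *CDKN1A*, *CDK1*, *INCENP*, *EPCAM*, *ENO2* and the kinesins given in full without a call were named after their values were seen. Alternatives were other summaries, tests, thresholds, scalings, filters, a replicate block and left-out arrays. Detection above background, the authors' probe filters and kinesin proteins were not used here.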

Additional observations from a re-analysis of the deposited data

Results flagged for a closer look

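A single array stood far from the other three of its group in 4 of the 64 groups of 4 arrays that the 32 kinesin genes form, by Dixon's test at the 95% level, and chance flags about 1 in 20 groups. *KIF2C* was at 5.66 in steroid-deplete replicate 3, against 5.16 to 5.24 in the other controls. *KIF21B*, a relative of *KIF21A*, was at 6.04 in the same array, against 5.82 to 5.83. *KIF20B* was at 3.51 in steroid-deplete replicate 1, against 4.01 to 4.07. *KIF26A* was at 5.50 in steroid-deplete replicate 1, against 5.25 to 5.28. Leaving out the array concerned changed the *KIF2C* log2 fold change from -0.46 to -0.35 (adjusted p = 0.00611) and that of *KIF20B* from -0.58 to -0.72.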

How the results depend on the processing

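*KIF11*, *KIF2A*, *KIF1C* and *KIF5C* kept their calls and directions when any single array was left out, and none of the 11 kinesins with an adjusted p under 0.05 turned direction under any alternative run. With Iter-PLIER values 8 kinesins were called lower (2 cargo, 2 other, with *KIF14*, *KIF1A* and *KIF6* added), the medians were -0.78 for mitotic and -0.37 for cargo kinesins, and their difference was -0.41. The methods' t-test with Benjamini-Hochberg adjustment called 0 lower and 1 higher, *KIF1C*, with 0 mitotic, 0 cargo and 0 other kinesins lower and 1 cargo kinesin higher (9 lower and 3 higher at an unadjusted p under 0.05). At an adjusted p under 0.05, 8 were lower (2 cargo, 2 other) and 1 mitotic kinesin was higher. With a 2-fold limit all counts were 0. Among clusters at or above the median level 2 were lower, with 0 mitotic lower and 1 higher, and with *KIF22* the only mitotic kinesin left the mitotic median turned to 0.35 and the difference to 0.51. With arrays centred on their median 2 were lower (1 mitotic, 0 cargo), 1 mitotic kinesin was higher and the cargo median was -0.0030. After quantile normalisation 3 were lower (0 cargo), 1 mitotic kinesin was higher, the cargo median was -0.0082 and the difference -0.31. Clusters called lower and higher among all 16309 numbered 2168 and 869 with Iter-PLIER values, where their median was -0.08, and 867 and 625 with the t-test. They numbered 3230 and 1711 at an adjusted p under 0.05, and 1879 and 1305 after quantile normalisation. Of the 8155 clusters at or above the median level 1722 were lower and 1054 higher. Without steroid-deplete replicate 1 and R1881 replicate 4 the difference was -0.31. The cause of these shifts was not tested.

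With single arrays left out, 2 to 5 kinesins were called lower, 1 to 3 mitotic and 0 to 1 cargo, and 2 to 2 higher. The count was 2 when the third control was left out, and 3 when the fourth control or R1881 array 1, 2 or 4 was. Over all clusters 1463 to 1962 were lower and 877 to 1090 higher in these runs. The medians ran from -0.40 to -0.22 (mitotic) and from -0.16 to -0.05 (cargo), their difference from -0.28 to -0.14.

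Probe sets called higher than their gene numbered 8 (3 lower) at an adjusted p under 0.05, 1 (0 lower) with RMA values, and 8 with no filter on dim probe sets, and 0 were lower with a pseudocount of 1. With single arrays left out 2 to 9 were higher and 0 to 2 lower. The count of higher was 2 when the first control was left out, 3 when the fourth control or the second R1881 array was, and 9 when the first R1881 array was; that of lower was 0 without either of these controls and 2 without the second or the fourth R1881 array. The replicate numbers did not pair the arrays (correlations of same-numbered deviations 0.07, 0.10, -0.10 and -0.06, with 1 of 8 arrays closest to its own number). With the replicate block 5 kinesins were lower and 2 higher, as without it, and 3 probe sets were higher.

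Most mitotic kinesins lay low on the array, so their values rest on dim probes, and clusters with several symbols cannot be assigned to 1 gene.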
